A study of Homo sapiens with 4 samples.

Results

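Integrin subunit genes were examined in K562 cells that overexpress U2AF1 S34F. The group consists of 10 genes, the alpha subunits ITGA2, ITGA2B, ITGA4, ITGA5, ITGA6 and ITGAV and the beta subunits ITGB1, ITGB3, ITGB5 and ITGB7, out of 64873 entries in the deposited gene table. For each symbol, the entry that names it and has the highest mean count over the 4 libraries was taken. Of the 10 members, 9 had enough counts to be tested among 26167 genes, and ITGA4 did not.

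K562 is an established human erythroleukemia cell line. U2AF1 is a splicing factor that binds the 3′ splice site, and S34F is a mutation in one of its zinc fingers that recurs in myeloid disease. All 4 libraries come from the overexpressing cells, 2 from cells given the solvent DMSO and 2 from cells given SF1-8, a compound directed at U2AF1, at 30 uM for 48 h. Total RNA was depleted of ribosomal RNA before sequencing. None of the 4 libraries comes from K562 with wild-type U2AF1, so the mutation is shared by both groups and its own effect is not part of the comparison. The labels do not say whether libraries of one group came from separate cultures, so the p-values measure only the spread between these samples, which may be technical.

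Integrins are receptors in the cell membrane made of 1 alpha and 1 beta subunit, and both are needed for the pair to reach the cell surface. They bind the extracellular matrix or other cells on the outside and, through talin and kindlin at the tail of the beta subunit, the actin cytoskeleton on the inside. K562 cells are known for attaching to fibronectin through the pair of ITGA5 and ITGB1, and ITGA2B with ITGB3 forms the fibrinogen receptor of platelets, a marker of the megakaryocyte fate.

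The total estimated count was between 45522905 and 67554610 per library, lowest in DMSO 1. Entries of ribosomal RNA held 10.9% to 14% of the counts, and short structured RNAs (RN7SK, RN7SL, RMRP and RPPH1) held 1.31% in DMSO 1 and 2.52% to 3.06% in the other 3 libraries. The quasi-likelihood F test of edgeR, with p-values adjusted by Benjamini and Hochberg's method, called 11 of the tested genes at an adjusted p under 0.05. The erythroid factor GATA1 lay between 75.9 and 79.1 FPKM in the 4 libraries. Of 18 megakaryocyte and platelet markers, 6 (GP9, PF4, PPBP, SELP, CLEC1B and VWF) were at 0 in all libraries. Another 11 had enough counts to be tested, with NFE2 between 22.1 and 25.3 FPKM and the entry that holds GP1BB between 13.4 and 15.9.

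The DNA upstream of 4 members is shown to set the 2 genes with the highest mean level, ITGB1 and ITGAV, beside 2 that were far lower and differ in CG content, ITGA2B and ITGA2. The sequences were taken from RefSeq on GRCh38.p14, from within the 250 bases before the RefSeq start, up to the first annotated exon base of the gene. The RefSeq start of ITGB1 lies 47562 bases inside the GENCODE gene and the tested entry, which begin farther upstream. Each reads 5′ to 3′ on the strand of the gene, with every CG dinucleotide in capitals. The stretches are chr10:32958233-32958480 on the minus strand for ITGB1, chr2:186589806-186590055 on the plus strand for ITGAV, chr17:44389650-44389899 on the minus strand for ITGA2B, and chr5:52989102-52989325 on the plus strand for ITGA2.
ITGB1: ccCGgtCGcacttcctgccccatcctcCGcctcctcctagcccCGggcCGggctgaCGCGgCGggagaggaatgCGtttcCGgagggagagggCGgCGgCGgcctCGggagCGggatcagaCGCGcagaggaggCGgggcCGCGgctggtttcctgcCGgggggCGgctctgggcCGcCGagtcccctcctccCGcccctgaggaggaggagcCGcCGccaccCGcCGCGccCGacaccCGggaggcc
ITGAV: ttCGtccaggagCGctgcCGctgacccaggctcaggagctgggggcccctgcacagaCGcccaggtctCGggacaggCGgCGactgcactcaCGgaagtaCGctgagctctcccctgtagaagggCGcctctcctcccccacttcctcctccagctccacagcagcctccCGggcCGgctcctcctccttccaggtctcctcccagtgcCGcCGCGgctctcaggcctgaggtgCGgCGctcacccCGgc
ITGA2B: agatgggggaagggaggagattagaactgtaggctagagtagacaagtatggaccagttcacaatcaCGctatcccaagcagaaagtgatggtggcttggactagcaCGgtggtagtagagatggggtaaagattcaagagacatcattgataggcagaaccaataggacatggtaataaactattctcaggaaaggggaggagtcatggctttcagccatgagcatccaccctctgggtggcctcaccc
ITGA2: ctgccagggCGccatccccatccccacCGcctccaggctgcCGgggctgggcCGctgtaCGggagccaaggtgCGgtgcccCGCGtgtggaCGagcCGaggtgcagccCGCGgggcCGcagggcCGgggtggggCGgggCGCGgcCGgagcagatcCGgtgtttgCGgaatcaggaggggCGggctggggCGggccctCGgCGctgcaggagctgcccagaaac

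A window of 250 bases was found for 9 of the 10 members, all but ITGB3. ITGB1 held 32 CG in its window, more than 90.5% of the 35116 promoter windows in the table, whose median was 11. ITGAV held 18 and ITGA5 held 12. The order of CG content was not that of the levels given below, since ITGA2 held 26 and ITGA4 held 25, while ITGA2B and ITGB7 held 2 each, with ITGB5 at 9 and ITGA6 at 8. The letters GGGCGG, the core of a site for the SP1 family, were counted on both strands and lie in 42.6% of all windows. They occurred 3 times in that of ITGB1, 4 times in that of ITGA2, 2 times in that of ITGB5 and once in that of ITGA5. CCGGAA, the core of an ETS site, lies in 14.5% of windows and occurred once each in ITGB1 and ITGB5. Every match of GGGCGG or CCGGAA also contains a CG. The GATA letters AGATAA and TGATAA, which lie in 9.17% and 6.66% of windows, were found in the window of no matched member. The ITGA2B window stops at 44389650, upstream of the GENCODE start of the gene at 44389505, and the bases between were not searched. Other forms of the GATA site were not counted, such as TGATAG, which the ITGA2B stretch printed above contains. TATAAA, the core of a TATA box, lies in 10.7% of windows and occurred once, in ITGA6.

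The levels of the 10 genes fell into 4 tiers that did not overlap over the 4 libraries (plot of FPKM by library). FPKM scales the fragments of a gene by its length and by the depth of the library, so genes of different length can be set side by side. ITGB1, the beta subunit shared by the receptors for fibronectin, collagen and laminin, had the highest FPKM at 34.7 and 21.3 in the DMSO libraries and 24.6 and 34.4 in the SF1-8 libraries. Its mean lay above that of 96.6% of the tested genes.

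ITGAV, the alpha subunit of the receptors for vitronectin and latent TGF-beta, was at 7.49 and 7.92 FPKM in the DMSO libraries and at 7.97 and 8.68 in the SF1-8 libraries. For ITGA5, the alpha subunit of the fibronectin receptor, the DMSO libraries gave 7.66 and 6.79 and the SF1-8 libraries 7.46 and 7.26. The ranges of ITGAV and ITGA5 overlapped, so their order is not fixed by these libraries. Both lay above at least 84% of the tested genes.

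ITGB3, ITGB5 and ITGA2B formed the next tier, with overlapping ranges. ITGB3, a beta partner of both ITGAV and ITGA2B, was at 0.489 and 0.495 FPKM under DMSO and at 0.456 and 0.53 under SF1-8. ITGB5, another partner of ITGAV, was at 0.548 and 0.457 with DMSO and 0.445 and 0.369 with SF1-8. ITGA2B, the platelet alpha subunit, had 0.302 and 0.352 with DMSO and 0.385 and 0.278 with SF1-8. All 3 genes lay in the lower part of the tested genes, above 27.1%, 25.7% and 20.9% of them.

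The remaining 4 members were near the limit of detection. ITGB7, the beta subunit of the gut homing receptor of lymphocytes, was at 0.0715 and 0.104 FPKM under DMSO and at 0.0354 and 0.128 under SF1-8. ITGA2, the alpha subunit of a collagen receptor, lay between 0.0648 and 0.0733 in the 4 libraries. ITGA6, the alpha subunit of laminin receptors, was listed at 0 in DMSO 2 and lay between 0.0201 and 0.0531 in the other 3. ITGA4, a leukocyte subunit that binds VCAM1 and fibronectin, was at 0.0122 and 0.00436 with DMSO and listed at 0 in both SF1-8 libraries. The range of ITGB7 overlapped those of ITGA2 and ITGA6, and that of ITGA6 overlapped that of ITGA4, while ITGA2 lay above ITGA6 in every library.

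**Figure D1:**
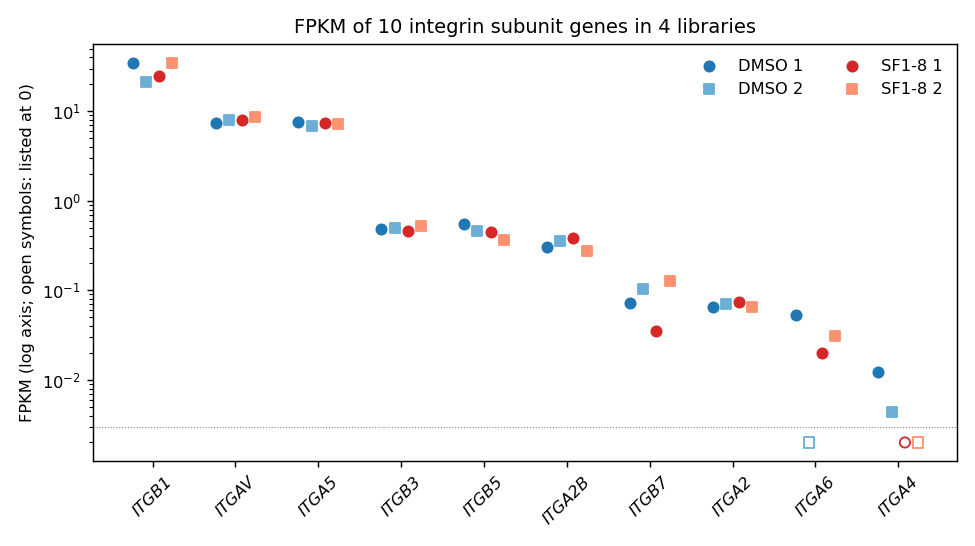
FPKM (log axis) of the 10 integrin subunit genes in each of the 4 libraries, ordered by mean, with open symbols under the dotted line for values listed at 0. ITGB1 lies above ITGAV and ITGA5, which lie above the 7 other genes in every library, and the DMSO and SF1-8 libraries interleave for most genes.

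Summed FPKM showed how few of the members carried the signal of the group. ITGB1 made up 96.9% and 95.3% of the FPKM of the 4 beta members with DMSO and 96.3% and 97.1% with SF1-8. ITGAV and ITGA5 together made up between 97% and 97.7% of the 6 alpha members in all 4 libraries. ITGAV alone held 48.1% and 52.3% with DMSO and 50.1% and 53.2% with SF1-8. The summed alpha FPKM was between 15.1 and 16.3, and the summed beta FPKM ranged from 22.4 to 35.8 with the level of ITGB1.

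None of the 9 tested integrin subunits passed the edgeR test between SF1-8 and DMSO, at an adjusted p under 0.05 (0.0420% of all tested genes did) or at an unadjusted one (4.33% of all tested genes did). DESeq2 and limma also called 0 members at either level. Fold changes are given as log2 of SF1-8 over DMSO and come from the counts. Of the 9 genes, 2 had a negative value (ITGB5 and ITGB7) and 7 a positive one, where 51.6% of all tested genes were negative. Their median was 0.054, against -0.0106 over all tested genes. In bulk RNA, fewer cells with a transcript and less transcript per cell cannot be told apart.

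For ITGB1 the 2 libraries of a group differed far more than the groups did. Its mean FPKM was 28 ± 9.46 (SD, n = 2) under DMSO against 29.5 ± 6.92 (SD, n = 2) under SF1-8, with DMSO 1 and SF1-8 2 high and DMSO 2 and SF1-8 1 low. The log2 fold change was 0.11 (standard error 0.251, 95% interval -0.527 to 0.75, edgeR adjusted p = 0.98), so changes from 0.694-fold to 1.68-fold lie within the interval. The replicates differed by 0.622 with DMSO and 0.47 with SF1-8 in log2 of depth-scaled counts. Among 1784 genes of like level, the median difference was 0.0894 and 0.0651, and 95.1% and 94.9% of them differed by less than ITGB1. The share of ribosomal RNA was 10.9% and 11.8% in the libraries where ITGB1 was high and 14% and 13.7% where it was low, and its part in the result was not tested. Without DMSO 1 the log2 fold change of ITGB1 was 0.456, without DMSO 2 it was -0.161, and without SF1-8 2 it was -0.137.

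ITGAV and ITGA5 were measured with smaller errors. ITGAV had a mean FPKM of 7.71 ± 0.305 (SD, n = 2) under DMSO against 8.33 ± 0.505 (SD, n = 2) under SF1-8, and the SF1-8 libraries were both higher than either DMSO library, which held for 14.2% of all tested genes. Its log2 fold change was 0.14 (standard error 0.0958, 95% interval -0.107 to 0.381, edgeR adjusted p = 0.97), which bounds the fold change between 0.928 and 1.3. For ITGA5 the mean FPKM was 7.23 ± 0.614 (SD, n = 2) under DMSO against 7.36 ± 0.139 (SD, n = 2) under SF1-8, and the groups overlapped. Its log2 fold change of 0.06 (standard error 0.0844, 95% interval -0.16 to 0.27, edgeR adjusted p = 0.97) bounds the fold change between 0.895 and 1.21. The genes whose depth-scaled counts ran most like those of ITGAV over the 4 libraries, among 4003 of like level, were ZBTB33, MRPS18B and NUDCD1, with root mean square differences of 0.00979, 0.0121 and 0.0125 in centred log2 values.

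**Figure D2:**
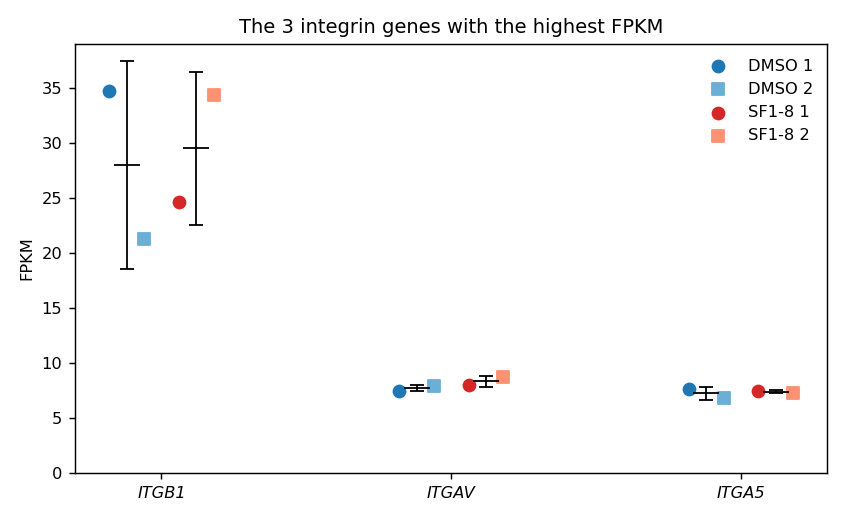
FPKM of ITGB1, ITGAV and ITGA5 in each library, with the mean and SD (n = 2) of each group as bars. For ITGB1 the libraries of a group lie farther apart than the group means of 28 and 29.5, and ITGAV and ITGA5 stay between 6.79 and 8.68 in all libraries.

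ITGB5 had the lowest log2 fold change of the tested members. Its mean FPKM was 0.502 ± 0.0646 (SD, n = 2) under DMSO against 0.407 ± 0.0541 (SD, n = 2) under SF1-8, and the SF1-8 libraries were both lower than either DMSO library, which held for 20.0% of all tested genes. The log2 fold change was -0.26 (standard error 0.22, 95% interval -0.825 to 0.297, edgeR adjusted p = 0.97), an interval that spans 0.565-fold to 1.23-fold.

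ITGB3 and ITGA2B, which together form the platelet receptor, had log2 fold changes of 0.03 (standard error 0.164, 95% interval -0.391 to 0.446) and 0.05 (standard error 0.287, 95% interval -0.685 to 0.775). In both genes the SF1-8 libraries lay on either side of the DMSO libraries. For ITGB7, ITGA2 and ITGA6 the intervals were wide, from -1.985 to 1.826, from -0.983 to 1.109 and from -4.347 to 4.454, and changes within those bounds were not detectable at this depth. ITGA4, with estimated counts of 8 and 4 in the DMSO libraries and 0 in both SF1-8 libraries, was left out of the test by the filter on low counts, and no fold is given for it. With no such filter its adjusted p by edgeR was 0.929.

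**Figure D3:**
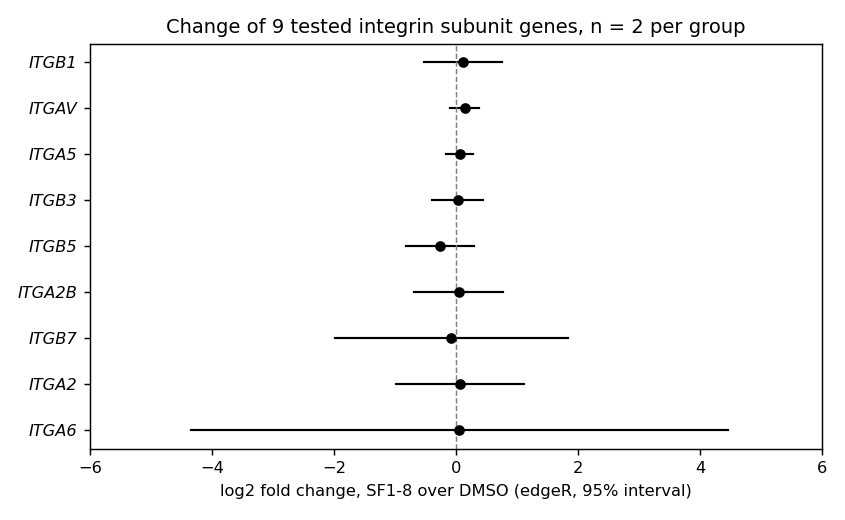
Log2 fold change (SF1-8 over DMSO) of the 9 tested integrin subunits, ordered by level, with 95% intervals from edgeR's quasi-likelihood test (n = 2 per group). Every interval includes 0, and the intervals widen from ITGAV and ITGA5 to ITGA6, which spans -4.347 to 4.454.

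Because integrins work as pairs, the ratio of alpha to beta FPKM was taken within each library, which cancels the library's scale. Of 9 known pairs among the members, 6 had no value of 0, and the 6 differences were tested by an exact permutation of the 4 libraries, whose smallest two-sided p is 0.333. The ITGA5 to ITGB1 ratio was between 0.211 and 0.319, or -2.18 and -1.65 (DMSO) and -1.72 and -2.24 (SF1-8) on the log2 scale (difference -0.0695, exact permutation p = 0.667). The ITGAV to ITGB1 ratio lay between 0.216 and 0.372, with a difference of 0.0129 on the log2 scale. As single libraries were left out, these differences ranged from -0.334 to 0.195 and from -0.379 to 0.405. ITGB1 had a higher FPKM than either of these alpha partners in every library.

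Against the other beta partners, ITGAV was in excess. The ITGAV to ITGB5 ratio was between 13.7 and 23.5, or 3.77 and 4.12 (DMSO) and 4.16 and 4.56 (SF1-8) on the log2 scale (difference 0.415, exact permutation p = 0.333 and 0.999 after Benjamini-Hochberg adjustment over the 6 pairs). The ITGAV to ITGB3 ratio was between 15.3 and 17.5, or 3.94 and 4 (DMSO) and 4.13 and 4.04 (SF1-8) on the log2 scale (difference 0.113, exact permutation p = 0.333). For both pairs the SF1-8 libraries lay above the DMSO libraries, with differences of 0.217 to 0.612 and of 0.0667 to 0.159 as single libraries were left out. The ITGA2B to ITGB3 ratio was between 0.525 and 0.845, and ITGA2 stood to ITGB1 as 0.00187 to 0.00334, each with overlapping groups. The ITGB3 value comes from an entry that also names EFCAB13 and AC068234, and the ITGA2B entry covers 78.7% of its gene. Ratios with these entries are therefore not of the subunits alone.

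**Figure D4:**
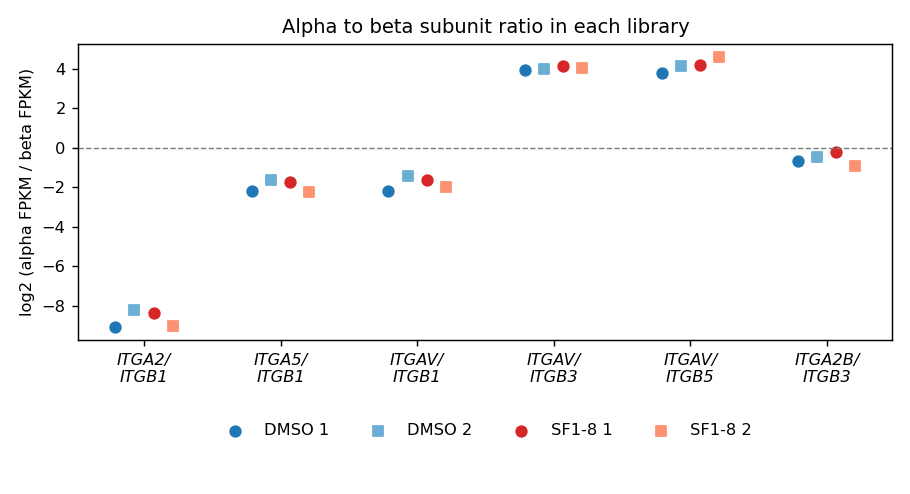
Log2 ratio of alpha to beta subunit FPKM in each library for the 6 pairs without a value of 0. ITGA5 and ITGAV lie below ITGB1 in all 4 libraries, ITGAV lies above ITGB3 and ITGB5, and the differences between groups are at most 0.415. The ITGB3 value comes from an entry that also names EFCAB13 and AC068234.

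The entries that carry these values do not always match the gene model of GENCODE version 29. The ITGB3 entry (chr17:47253827-47441312) runs 129496 bases past the end of ITGB3 over EFCAB13 and AC068234, which lie on the same strand, so its value belongs to 3 genes and not to ITGB3 alone. The ITGA2B entry (chr17:44372180-44385809) covers 78.7% of the gene and lacks the 3696 bases at its 5′ end, which lies at 44389505. The upstream stretch printed above stops short of that end, at 44389650. A second entry that names ITGA2B lies in the missing part, at chr17:44386559-44386764. It had 0.632 and 0.206 FPKM with DMSO and 0.209 and 1.58 with SF1-8. The entries of ITGB1 (chr10:32900318-33005792), ITGAV (chr2:186590056-186680901), ITGB5 (chr3:124761948-124901418) and ITGA6 (chr2:172427354-172506459) cover the whole gene. The ITGA5 entry (chr12:54395261-54419266) covers 99.2%, the ITGB7 entry (chr12:53191323-53207281) 99.8% and the ITGA4 entry (chr2:181457202-181527450) 88.9%. The ITGA2 entry (chr5:52989340-53094779) lacks 14 bases at the 5′ end.

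Genes on the opposite strand overlap several members, and no source used here says whether reads were counted by strand. The lncRNA ITGB1-DT shares 46948 bases with ITGB1, from the region of the ITGB1 stretch printed above, and its entry was at 0.0982 and 0.141 FPKM in the DMSO libraries and 0.1 and 0.0787 in the SF1-8 libraries. A second entry that names ITGA5 lies on the opposite strand at chr12:54395344-54397869, includes 1250 bases of ITGA5 exons and had an FPKM of 2.59 to 3.11. A coding gene, ZNF740, shares 3819 bases with ITGB7. Antisense genes also overlap ITGAV, ITGA2, ITGA6, the ITGB3 entry (THCAT158, 20154 bases) and ITGB5, so the low values of ITGA2, ITGA6 and ITGB3 are uncertain in this respect. The entries of ITGA6-AS1 and of ITGB5-AS1, the antisense gene over ITGB5, were at 0 in all 4 libraries.

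The 16 integrin subunits outside the group were low as well, at no more than 1.75 FPKM in any library. Of 14 that could be tested, 9 had a negative and 5 a positive log2 fold change, with a median of -0.233, and 2 had an unadjusted p under 0.05, both lower, where 2.54% of all tested genes were called in that direction. ITGA8, which pairs with ITGB1, had an FPKM of 0.0443 and 0.0231 under DMSO and was listed at 0 in both SF1-8 libraries. It passed the filter only through the DMSO libraries, so its call is no evidence of a difference and no fold is given. ITGAD, in an entry shared with AC093520, had 0.148 and 0.142 with DMSO and 0.0785 and 0.0538 with SF1-8 (log2 fold change -1.08, unadjusted p = 0.0443, edgeR). Without ITGA8, 8 of 13 were negative, ITGAD was the 1 call, and the median was -0.207. Neither gene passed after adjustment. Without DMSO 1 the list held 0 such calls, and without SF1-8 2 its median was 0.027.

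Of 17 tested genes for integrin activation and tail binding, 7 were lower and 10 higher, and their median was 0.05 on the log2 scale. Of these, 2 had an unadjusted p under 0.05, both higher (1.78% of all tested genes). They were NUMB, an endocytic adaptor of integrins, at 2.99 and 2.68 FPKM with DMSO and 3.42 and 3.43 with SF1-8, and RAP1GAP, which turns off the integrin activator RAP1, at 4 and 4.16 with DMSO and 4.75 and 5 with SF1-8. The adjusted p of both was 0.97 (edgeR). Without DMSO 1, 10 of the 17 genes were lower (median -0.036), and the number of higher calls was 0 without SF1-8 1 and without SF1-8 2.

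Of 26 tested genes of the adhesion complex, 11 were lower and 15 higher, with a median of 0.015, and none had an unadjusted p under 0.05. Without DMSO 1, 14 were lower and the median was -0.0221. The adaptor CRKL was the most abundant, at 130 and 129 FPKM with DMSO and 133 and 137 with SF1-8, followed by the actin crosslinker ACTN4 at 29.5 to 32.8. Among 16 tetraspanins and lateral partners, 7 were lower and 9 higher, and CD63 lay between 56.6 and 76.8 FPKM. TSPAN32 was the 1 call of this list (log2 fold change -0.74, unadjusted p = 0.0386, edgeR), where 2.54% of all tested genes were called lower. The median of this list was 0.052, and -0.0513 without DMSO 1, and it held 0 calls without DMSO 1, SF1-8 1 or SF1-8 2. Of 20 tested genes of integrin traffic and glycosylation, 7 were lower and 13 higher. GGA3, an adaptor in endosomal sorting, was the 1 call (log2 fold change 0.3, unadjusted p = 0.0425, edgeR), where 1.78% of all tested genes were called higher. Clathrin heavy chain, CLTC, had a log2 fold change of -0.07. Without SF1-8 1 the list held 0 calls.

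Most tested genes of integrin ligands had lower values with SF1-8. Of 35 ligand genes, 25 passed the filter on low counts. Of these, 20 were lower and 5 higher, with a median log2 fold change of -0.549, and 8 had an unadjusted p under 0.05, all lower, against 2.54% of all tested genes. The 4 with the smallest p were COL1A2 (-1.54), the platelet and matrix protein THBS1 (-1.33), the laminin chain LAMC1 (-1.56) and COL3A1 (-2.73), and none of the 25 passed after adjustment in edgeR, while DESeq2 called 2 of 32, both lower (0.223% of all its tested genes). THBS1, a ligand of the ITGAV and ITGB3 pair, had an FPKM of 1.17 and 0.783 under DMSO and 0.481 and 0.274 with SF1-8. LAMC1 had 0.254 and 0.279 with DMSO and 0.118 and 0.058 with SF1-8. The called ligands CCN2 (0.23 and 0 FPKM with SF1-8) and TNC (0.027 and 0) were listed at 0 in SF1-8 2. Each needed a DMSO library to pass the filter, so the 8 calls are not free of that selection. Without DMSO 1, 3 ligand genes instead of 8 had an unadjusted p under 0.05, and the median was -0.184.

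Fibronectin, FN1, the ligand of the most abundant pairs, was picked after its values were seen and had an FPKM of 14.4 and 12.4 under DMSO and 12.2 and 10.3 with SF1-8 (log2 fold change -0.22, standard error 0.109, unadjusted p = 0.102 by edgeR). Its SF1-8 values were both under its DMSO values, which held for 20.0% of all tested genes.

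Fibroblast and stromal markers were lower in the same libraries, and 3 collagens (COL1A1, COL1A2 and COL3A1) are on both lists. Of the 22 other tested ligands, 17 were lower, 6 of them at an unadjusted p under 0.05, with a median of -0.351. Of 14 tested stromal markers, 11 were lower and 7 had an unadjusted p under 0.05, all lower, and the median was -2.03. Over all tested genes, 51.6% were negative and 2.54% were called lower at that level. LUM, at 0.17 and 0.087 FPKM with DMSO and listed at 0 in both SF1-8 libraries, passed the filter only through the DMSO libraries. Without LUM 10 of 13 were lower, 6 of them called, with a median of -1.73. DCN, among those 6, was at 0.0815 and 0.0161 FPKM with DMSO and 0.00328 and 0 with SF1-8. It too needed a DMSO library to pass the filter. PDGFRB, another of the 6, was at 0.0636 and 0.0195 FPKM with DMSO and 0.0063 and 0.00355 with SF1-8. It may have passed the filter in the same way. The 6 calls and the median of -1.73 are not free of this selection. Apart from LUM, those with the smallest p were COL6A1 (-1.73), COL1A2 and COL6A2 (-1.47). FAP was at 0 in every library but DMSO 1. Without DMSO 1, 2 of the 14 instead of 7 had an unadjusted p under 0.05. The summed FPKM of the list without VIM, which lay between 163 and 225 FPKM, was 17.8 and 10.8 with DMSO and 7.61 and 4.81 with SF1-8. The part of these markers in the values of the ligands was not tested.

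Of 11 tested megakaryocyte markers, 7 were lower and 4 higher (median -0.0383), with GP1BB, in an entry shared with SEPTIN5, between 13.4 and 15.9 FPKM and the transcription factor NFE2 between 22.1 and 25.3. Of 13 tested erythroid entries, 10 were lower and 3 higher (median -0.0511), with TFRC between 95.7 and 116 FPKM and the joint entry of HBA1 and HBA2 between 76.2 and 86.7. Of 10 tested leukocyte markers 6 were lower (median -0.108), with PTPRC between 4.82 and 5.86 FPKM and CD68, in an entry shared with EIF4A1 and SENP3, between 25.7 and 37.1. Of 6 tested endothelial markers 4 were lower (median -0.0834), with EGFL7 between 10.7 and 12.2 FPKM and CLDN5 between 1.09 and 1.39. None of these 4 lists held a gene with an unadjusted p under 0.05, and each median changed sign when 1 library was left out. Without DMSO 2, 6 of the 13 erythroid entries were lower and their median was 0.0164, and the medians were 0.0538 for the megakaryocyte and 0.149 for the leukocyte markers. The endothelial median was 0.0017 without SF1-8 2.

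**Figure D5:**
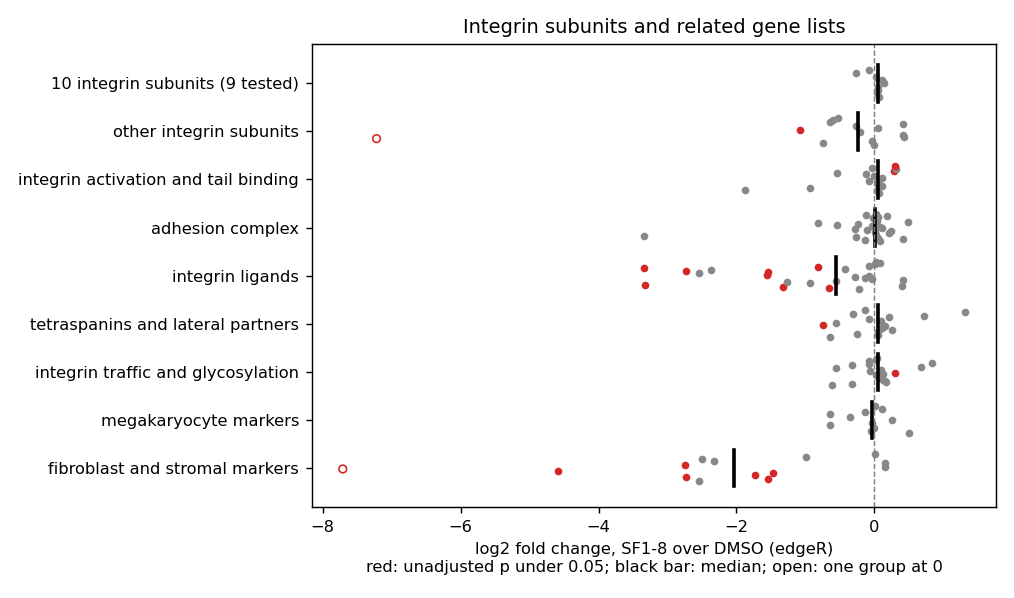
Log2 fold change (SF1-8 over DMSO) of the tested integrin subunits and of genes in related lists, 1 point per gene, red for an unadjusted p under 0.05 and with a black bar for the median. Open points (ITGA8 and LUM) are genes at 0 in both SF1-8 libraries, whose fitted value has no fixed size. The integrin subunits lie close to 0 (median 0.054), and ligands (-0.549) and stromal markers (-2.03, or -1.73 without LUM) lie lower.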

How the data were processed

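Per the labels, total RNA of K562-U2AF1 S34F cells was depleted of ribosomal RNA and made into TruSeq libraries, 2 with DMSO and 2 with SF1-8. The submitters' processing notes name cutadapt, FastQC, Bowtie2, HISAT2, StringTie and the build hg38, without versions. Which tool made which value, and whether strand was used, is not given in the sources used here. The authors deposited FPKM values, normalized for length and depth with 1e-04 in place of 0, and whole-number counts. The deposited counts were taken as estimated counts and rounded, since 4 is the commonest value above 0 in every library. A count is therefore not 1 read, no counting interval was computed, and precision rests on the spread between libraries. The depth was 45522905 to 67554610 counts.

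The 2095 entries that name no gene (0.358% to 0.421% of the counts) entered neither library sizes nor tests, and 2088 entries name more than 1 gene. Counts were normalized by TMM, filtered by filterByExpr and tested by edgeR 4.0.16's quasi-likelihood test in R 4.3.3, with Benjamini-Hochberg adjustment over 26167 genes. Standard errors are the unshrunk log2 fold change divided by the square root of F, and intervals use the t distribution with the fit's degrees of freedom. Levels are FPKM. Gene models are from GENCODE version 29 and upstream sequences from RefSeq.

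Alternatives were DESeq2 1.42.0, RLE factors, no filter, a replicate block, limma 3.58.1 on log2(FPKM + 1) and log2(FPKM + 0.1), counts divided by 4, leaving out ribosomal RNA entries, summing all entries of a gene and leaving out each library. Leaving out short structured RNA entries was added after seeing the data. On simulated counts for the comparison of SF1-8 with DMSO over 26167 genes, of which 200 were changed 4-fold, 63% of the changed genes were called and 6.67% of calls were false. The simulated spread followed the trend with level and not each gene's own spread, and smaller changes were not simulated. These rates therefore do not give the power or error of the tests of the members.

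The members and the gene lists were chosen with earlier results of these data known. Named genes are the 10 members; from each list, genes with an adjusted p under 0.05, then up to 4 with the smallest unadjusted p under 0.05, and, where fewer than 2 result, the most abundant up to 2; and the 3 genes most like the member with the smallest p. FN1, GATA1, FAP, VIM, COL1A1, DCN, PDGFRB, CCN2, TNC, ITGAE, ITGA1, ITGB6 and the megakaryocyte markers at 0 lie outside this rule. They were named after their values were seen, as were the antisense neighbours.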

Additional observations from a re-analysis of the deposited data

How the results depend on the processing

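Over 124 member values under the alternatives, the adjusted p was at least 0.643 and the sign was kept in 108. ITGAV, ITGA5 and ITGB5 kept their direction under all 14 alternatives, with log2 fold changes of 0.0587 to 0.225, 0.0142 to 0.103 and -0.405 to -0.127 as single libraries were left out. The sign of ITGA2 turned with counts divided by 4 (-0.0293), that of ITGA6 with limma on log2(FPKM + 1) (-0.000881), and that of ITGB3 with limma on log2(FPKM + 0.1) (-0.00107) and with all its entries summed (-0.0957). The second entry summed for ITGB3 lies 129779 bases past the end of the gene and holds 0 bases of its exons. That of ITGA2B lies inside the gene but also holds 0 bases of its exons, and the log2 fold change with it summed was 0.112. Leaving out a library gave ranges of -0.0368 to 0.18 for ITGA2, -0.208 to 0.267 for ITGA2B, -0.96 to 6.86 for ITGA6, -0.161 to 0.456 for ITGB1, -0.071 to 0.128 for ITGB3 and -1.19 to 0.546 for ITGB7. The cause was not tested. As single libraries were left out, the median of the members ranged from -0.071 (without SF1-8 2) to 0.128 (without SF1-8 1), the number lower from 3 to 5 (5 without DMSO 1 and without SF1-8 2), and the number at an unadjusted p under 0.05 from 0 to 1, the 1 being ITGA6 without DMSO 1, which leaves its DMSO group with the library at 0. A group then holds a lone sample, assumed to vary like the other group. Over all genes, 11 passed the adjusted p, against 150 with DESeq2, 31 with no filter, 0 with the replicate block, 0 with limma at either pseudocount, and 0 to 30 without 1 library (0 without DMSO 1, 21 without DMSO 2, 30 without SF1-8 1 and 28 without SF1-8 2). Where none passed, an unadjusted p under 0.05 was reached by 971 genes with the block, 1493 and 1499 with limma at the pseudocounts 1 and 0.1, and 1341 without DMSO 1. With the replicate block 2 members stayed lower and 7 higher. The labels tie libraries of the same number together by nothing but that number. The differences between replicates in the 2 groups had a correlation of -0.0046 over 26167 genes, which does not show whether same-numbered libraries were handled together. ITGA2, ITGA4, ITGA6 and ITGB7 had at most 49 estimated counts in any library, which limits what can be seen of them.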
